A study of Mus musculus with 3 samples.

Results

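The files listed 6 miRNAs of the miR-26 and miR-101 families among 693 miRNAs in all. They were found by name, as every listed arm of the hairpins of miR-26a, miR-26b, miR-101a and miR-101b, and no measured value was used to choose them. They are miR-26a-5p, miR-26b-5p, miR-101a-3p, miR-101b-3p, miR-101a-5p and miR-101b-5p. Short RNA was sequenced from TAG1 cells, a mouse embryonic stem (ES) cell line in which doxycycline (Dox) induces Alk4*, a constitutively active receptor that phosphorylates Smad2/3. Untreated cells, grown with fetal bovine serum, gave the Control library. Cells exposed for 16 hrs to 30 µM SB gave the SB library; SB is an inhibitor of Smad2/3 phosphorylation that the labels spell SB-431541 and the methods SB-431542. For the Dox library the SB exposure was followed by 12 hrs of 1 µg/µl Dox. All 3 libraries had the Alk4* transgene of the same line and LIF in the medium. Both treated cultures had Knockout Serum Replacement in place of serum, so in any comparison with Control the medium and the treatment cannot be told apart. Dox differed from SB by 12 more hrs and by doxycycline itself, and these cannot be told apart from Smad2/3 activation. The paper also treated the parental line, which lacks Alk4*, with Dox, but gave no value for the arms studied here.

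Mature miRNAs guide Argonaute proteins to messenger RNAs, mainly through the seed, bases 2 to 8 from the 5′ end. One arm of each hairpin is usually kept as the guide and the other arm is degraded. The miR-26 hairpins lie within genes of the Ctdsp family, which encode small phosphatases of the RNA polymerase II C-terminal domain. Both families are known to repress Ezh2, the catalytic subunit of the Polycomb complex that methylates histone H3, and miR-26a is a common reference in miRNA qPCR. The study normalized its qPCR of mature miRNAs in these cells to miR-26a, which makes the behaviour of miR-26a-5p in the sequencing a comparison that the design implies.

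The mature sequences below carry the comparisons between family members. They are those of RefSeq on GRCm38.p6, written 5′ to 3′ with the seed in capitals.

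miR-26a-5p: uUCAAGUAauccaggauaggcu

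miR-26b-5p: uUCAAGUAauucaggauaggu

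miR-101a-3p: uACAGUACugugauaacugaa

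miR-101b-3p: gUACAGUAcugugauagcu

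miR-101c: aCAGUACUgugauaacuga

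miR-26a-5p and miR-26b-5p share their seed, and among the mouse mature sequences of the RefSeq table no other miRNA has it. Counted from the 5′ end of miR-26a-5p they differ by C11U and C21U. Their longest shared run is 10 bases, and the shortest read that the authors kept had 17, so no perfectly matching read could fit both mature sequences. miR-101a-3p and miR-101b-3p differ by A16G (miR-101a-3p first, with position 1 at its 5′ end), and their longest shared run is 15 bases. The annotated miR-101b-3p starts 1 base further upstream, so its seed as annotated is shifted by 1 base from that of miR-101a-3p. The files do not show where the reads of either miRNA started. miR-101c, which is outside the families as chosen here, lies whole within bases 2 to 20 of miR-101a-3p. A read of these 19 bases, or a shorter part of them, matches both, so the reads of miR-101a-3p and miR-101c depend on how the authors assigned them.

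miR-26a-5p can come from a pair of hairpins whose 5p arms are identical. They differ in their 3p arms:

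miR-26a-1-3p: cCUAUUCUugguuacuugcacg

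miR-26a-2-3p: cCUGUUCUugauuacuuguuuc

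Neither of these arms was listed, nor was miR-26b-3p, so the files do not divide the miR-26a-5p reads between the hairpins. A miRNA with fewer than 10 reads in the sum of the 3 libraries is not listed, so lower reads are not shown. Mir26a-1 lies at chr9:119031796-119031885 on the + strand in an intron of Ctdspl. Mir26a-2 lies at chr10:126995530-126995613 on the + strand in an intron of Ctdsp2, with its last 1 base in an annotated exon. Mir26b lies at chr1:74394310-74394394 on the + strand in an intron of Ctdsp1.

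The miR-101 hairpins follow with their mature arms in capitals, the 5p arm first, since the bases beside the guide arm are where reads of both could be confused.

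Mir101a: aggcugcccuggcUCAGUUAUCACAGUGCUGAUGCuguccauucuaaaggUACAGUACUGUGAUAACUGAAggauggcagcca

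Mir101b: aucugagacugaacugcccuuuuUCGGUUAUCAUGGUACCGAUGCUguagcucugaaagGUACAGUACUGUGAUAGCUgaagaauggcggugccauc

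Mir101a lies at chr4:101346945-101347027 on the - strand in an exon of the long noncoding RNA E130102H24Rik. Mir101b lies at chr19:29135279-29135375 on the + strand in an intron of Rcl1, a gene for a factor of ribosomal RNA processing. The hairpins share a run of 20 bases that starts upstream of both guide arms. A read of 17 bases or more lying inside that run would match both hairpins. The letters CAGAC, which mark Smad binding in the stems of some primary miRNAs, were searched on the RNA strand of the hairpin. They were in 0 of the 5 hairpins shown or placed here and in 80 of 1005 mouse hairpins (7.96%), which says only that these letters are not in these sequences.

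Levels are given in rpm, reads per 1000000 of the reads that the authors used for normalization, which numbered between 9895513 and 11354692 per library. There was 1 library per condition, so no difference between conditions could be tested. Intervals are 95% exact intervals (Poisson for levels, Clopper-Pearson for shares and ratios, conditional for ratios of ratios). With 1 library per condition they cover counting error only, and without molecular identifiers this is the counting error of reads, not of molecules. A miRNA was called higher or lower between 2 libraries by the criteria of the methods, a log2 ratio of 0.32 or more in size together with a Z-score outside the central 95% of a normal distribution. This Z-score compares the reads of the libraries and not the conditions. The reads on listed miRNAs were 28.3% of the reads used for normalization in Control, 24.1% in SB and 33.4% in Dox. The median log2 ratio over all 693 miRNAs was accordingly −0.19 for SB over Control, 0.38 for Dox over SB and 0.19 for Dox over Control.

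The guide arms made up nearly all reads of the families, and the 6 arms together held 1.64% of the reads on listed miRNAs in Control, 1.97% in SB and 2.07% in Dox. miR-26a-5p had 647 rpm in Control (632 to 662), 766 rpm in SB (750 to 782) and 798 rpm in Dox (780 to 816), from 7091, 8697 and 7894 reads. It was lowest in Control. In rpm the levels in SB and Dox were close, although counting error alone did not cover their difference (log2 ratio 0.06, 0.01 to 0.10). Under the other scalings tried, leaving out that to miR-26a-5p itself, Dox was below SB, with log2 ratios between −0.41 and −0.07. miR-26b-5p had 466 rpm in Control (453 to 479), 467 rpm in SB (455 to 480) and 1002 rpm in Dox (982 to 1022). In rpm, Control and SB could not be told apart within counting error, and Dox stood above both.

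miR-101a-3p had 1580 rpm in Control (1557 to 1604), 1954 rpm in SB (1929 to 1980) and 2502 rpm in Dox (2471 to 2534). In rpm it was lowest in Control and highest in Dox, with no overlap of the intervals, but under 4 of the 5 other scalings tried Dox was below SB. miR-101b-3p had 1944 rpm in Control (1918 to 1970), 1570 rpm in SB (1547 to 1593) and 2619 rpm in Dox (2588 to 2651). Unlike its paralogue it was lowest in SB. In each library both miR-101 guides were above both miR-26 guides. The guides took places 34, 28, 64 and 78 of the 693 levels in Control (miR-101a-3p, miR-101b-3p, miR-26a-5p and miR-26b-5p), and 32, 31, 62 and 56 in Dox. Within each family the order of the paralogues depended on the library: miR-26b-5p was below miR-26a-5p in Control and SB and above it in Dox, while miR-101b-3p was above miR-101a-3p in Control and Dox and below it in SB. With the reads of miR-101c counted as miR-101a-3p, miR-101b-3p was below it in every library.

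**Figure D1:**
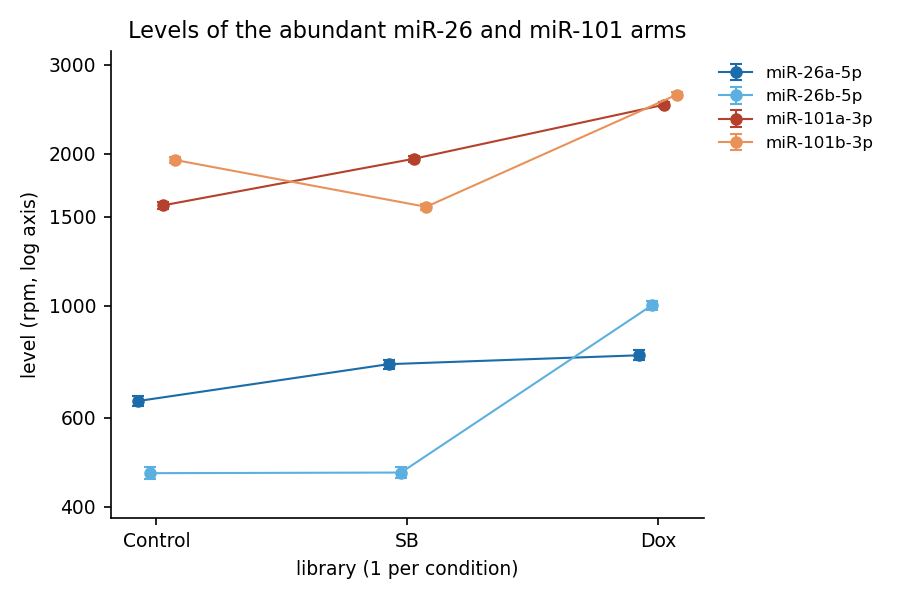
Level in rpm (log axis) of the guide arms in the Control, SB and Dox libraries, 1 library per condition; points are levels and bars the 95% Poisson interval of the reads. miR-26b-5p lies at 466 and 467 rpm in Control and SB and at 1002 rpm in Dox, where it passes miR-26a-5p. With miR-101c counted apart, the lines of the miR-101 paralogues cross on both sides of the SB library.

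The comparison of SB with Control asks which miRNAs depend on endogenous Smad2/3 signaling. None of the 6 arms was called: 0 were called lower, where 30.2% of all listed miRNAs were, and 0 were called higher, where 15.3% were. The 5p arms of miR-101, with at most 11 reads in a library, could hardly be called in any comparison. Scaled to reads on listed miRNAs, 165 of all were called higher and 144 lower, against 106 and 209 by rpm, and 2 of the arms, miR-26a-5p and miR-101a-3p, were called higher. The same 2 were called higher under median of ratios and TMM (trimmed mean of M-values) scaling, and scaled to miR-26a-5p 1 arm, miR-101b-3p, was called lower. Both miR-101 guides fell just short of the fold threshold, in opposite directions. The log2 ratio of miR-101a-3p was 0.31 (0.28 to 0.34), a fold of 1.237, and that of miR-101b-3p was −0.31 (−0.34 to −0.28). These lay 0.50 above and 0.11 below the median of all listed miRNAs. miR-26a-5p had a log2 ratio of 0.24 (0.20 to 0.29) and miR-26b-5p one of 0.00 (−0.05 to 0.06).

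The comparison of Dox with SB asks which miRNAs differ after Smad2/3 is activated again, together with the longer culture and doxycycline itself. By the same criteria 3 of the 6 arms were called higher, beside 41.7% of all listed miRNAs, and 0 were called lower, beside 17.9%. The share of arms called higher was near that of all listed miRNAs. With libraries scaled to reads on listed miRNAs, 163 of the 693 were called higher and 218 lower, against 289 and 124 by rpm, and of the arms 1 was called higher (miR-26b-5p) and 1 lower (miR-26a-5p). miR-26b-5p had a log2 ratio of 1.10 (1.05 to 1.15), a fold of 2.14, which was 0.72 above the median of all. miR-101b-3p had 0.74 (0.71 to 0.77), and miR-101a-3p had 0.36 (0.33 to 0.38), which was 0.02 below the median of all. miR-26a-5p was not called, with a log2 ratio of 0.06 (0.01 to 0.10), which was 0.32 below that median. Among the 126 miRNAs with at least 1000 reads in each library, 81.0% had a lower ratio than miR-26b-5p and 28.6% a lower one than miR-26a-5p.

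Dox and Control were compared as well, with libraries that the other comparisons also use. By the same criteria 3 of 6 arms were called higher (30.6% of all listed miRNAs) and 0 lower (19.8%). Scaled by TMM, 156 of all were called higher and 180 lower, against 212 and 137 by rpm. The arms called higher were 2 with libraries scaled to reads on listed miRNAs, by median of ratios, by TMM or to miR-26a-5p, and 1 under quantile normalization. miR-26b-5p stood out most, with a log2 ratio of 1.10 (1.06 to 1.15), above 95.2% of the 126 miRNAs. miR-101a-3p followed with 0.66 (0.64 to 0.69) and miR-101b-3p with 0.43 (0.40 to 0.46). The call of miR-101b-3p held in rpm but under none of the 5 other scalings, where its log2 ratio was between 0.13 and 0.25, or −0.092 under quantile normalization. miR-26a-5p had 0.30 (0.26 to 0.35), a fold of 1.23, just short of the criteria.

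**Figure D2:**
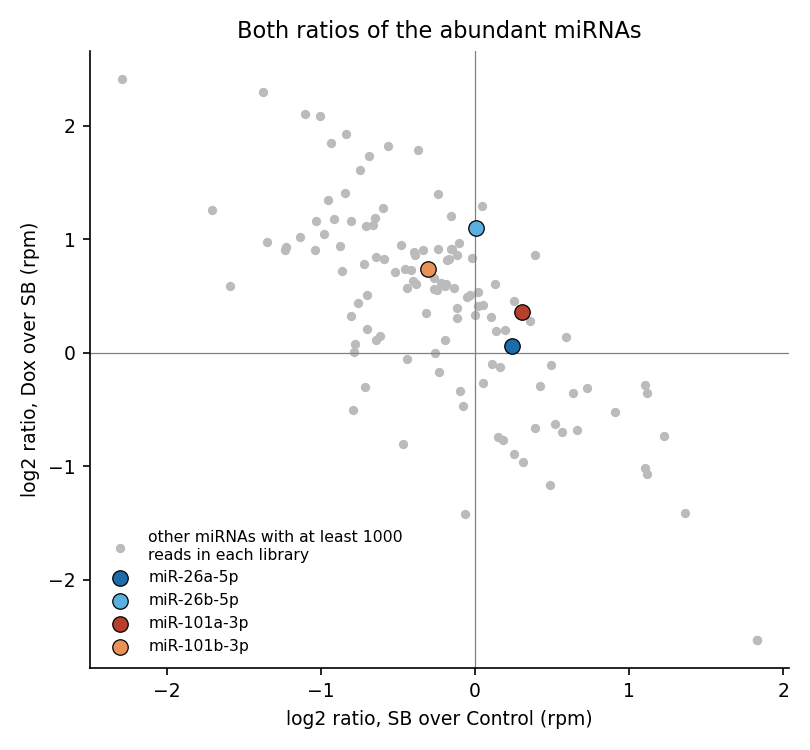
Log2 ratio of Dox over SB against that of SB over Control for the 126 miRNAs with at least 1000 reads in each library, as grey points, with the guide arms in colour. Both axes use the SB library, so a low SB value moves a point up and to the left; miR-26b-5p lies at 0.00 and 1.10, and miR-26a-5p at 0.24 and 0.06.

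Sums over a family hid these differences. The miR-101 guides together had 3524 rpm in Control, 3525 rpm in SB and 5122 rpm in Dox, so that in rpm the sum was level between Control and SB (log2 ratio 0.00, −0.02 to 0.02) while its parts differed in opposite directions. The miR-26 guides together had 1113, 1233 and 1800 rpm in the same order. For Dox over SB the log2 ratio of the sum in rpm was 0.55 (0.51 to 0.58) for miR-26 and 0.54 (0.52 to 0.56) for miR-101. Scaled to reads on listed miRNAs, the miR-101 sum had a log2 ratio of 0.23 for SB over Control, and for Dox over SB the sums had 0.08 (miR-26) and 0.07 (miR-101). Under quantile normalization the miR-101 sum turned to −0.08 for Dox over SB, and scaled to miR-26a-5p it turned to −0.24 for SB over Control, as did the miR-26 sum to −0.10. In rpm, the similar sums covered a miR-26 family in which 1 guide carried most of the difference and a miR-101 family in which both guides were higher, although the ratio of miR-101a-3p turned to between −0.32 and −0.02 under reads on listed miRNAs, median of ratios, TMM and quantile normalization.

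The share of a paralogue within its family does not depend on the total by which a library is scaled. miR-26b-5p made up 41.9% (41.0 to 42.7) of the miR-26 guide reads in Control, 37.9% (37.1 to 38.7) in SB and 55.7% (54.9 to 56.4) in Dox. The number of miR-26b-5p reads per miR-26a-5p read was 2.06 times as high in Dox as in SB (1.97 to 2.16) and 1.75 times as high as in Control (1.67 to 1.83). From Control to SB it differed by a factor of 0.847 (0.806 to 0.891). miR-101b-3p made up 55.2% (54.7 to 55.7) of the miR-101 guide reads in Control, 44.5% (44.1 to 45.0) in SB and 51.1% (50.7 to 51.6) in Dox. Its reads per miR-101a-3p read were 0.653 times (0.635 to 0.672) as many in SB as in Control, and 1.30 times (1.27 to 1.34) as many in Dox as in SB. Dox stayed below Control by a factor of 0.851 (0.828 to 0.874). In both families the b paralogue thus had its lowest share in the SB library, and its highest was in Dox for miR-26 and in Control for miR-101.

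**Figure D3:**
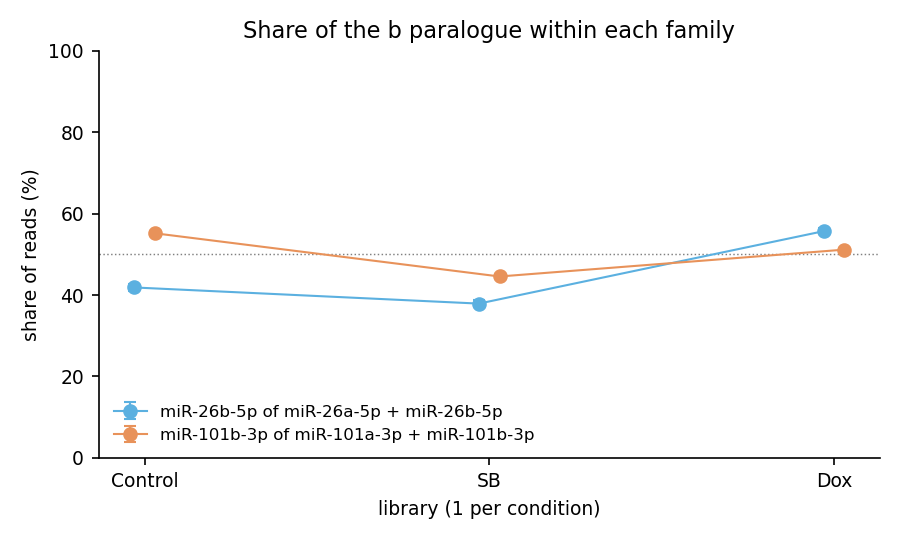
Share of the b paralogue in the guide reads of its family, in percent, for each library, with 95% Clopper-Pearson intervals that are mostly smaller than the points; the dotted line marks equal shares. miR-26b-5p goes from 37.9% in SB to 55.7% in Dox, and miR-101b-3p from 55.2% in Control to 44.5% in SB.

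miR-101c, whose sequence lies within miR-101a-3p, had 1124 rpm in Control, 1336 rpm in SB and 1828 rpm in Dox. Its log2 ratios were 0.25 for SB over Control and 0.45 for Dox over SB, on the side of miR-101a-3p rather than that of miR-101b-3p in the former comparison. It took 41.6% (41.0 to 42.1) of the sum of its reads and those of miR-101a-3p in Control, 40.6% (40.1 to 41.1) in SB and 42.2% (41.7 to 42.7) in Dox. With its reads counted as miR-101a-3p, the share of miR-101b-3p was 41.8%, 32.3% and 37.7%, with the same order of libraries. miR-101b-3p was then the smaller part in every library, so the paralogues no longer changed order. By the rule of the authors, a read that fits both mature sequences goes to the one closer in length, which as annotated here is miR-101c. Whether the later alignment to hairpins listed reads under both names was not given in the sources used here.

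The passenger arms of miR-101 were near the limit of detection. miR-101a-5p had 4 reads in Control, 5 in SB and 7 in Dox, which is 0.37 rpm (0.099 to 0.93), 0.44 rpm (0.14 to 1.03) and 0.71 rpm (0.28 to 1.46). miR-101b-5p had 8, 11 and 10 reads, or 0.73 rpm (0.32 to 1.44), 0.97 rpm (0.48 to 1.73) and 1.01 rpm (0.48 to 1.86). All intervals overlapped, and no difference was detectable at this depth. The 5p arm made up 0.023% (0.006 to 0.059) of the miR-101a reads in Control and 0.028% (0.011 to 0.058) in Dox. For miR-101b it was 0.038% (0.016 to 0.074) in Control, 0.062% (0.031 to 0.110) in SB and 0.039% (0.018 to 0.071) in Dox. The 3p arm held nearly all reads of both hairpins in every library.

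The scaling of the libraries decided the calls of 3 of the 4 guides. Scaled to reads on listed miRNAs, miR-26a-5p had log2 ratios of 0.47 for SB over Control and −0.41 for Dox over SB, and it was called higher and then lower. miR-101a-3p was called higher in SB than in Control under each of the scalings by miRNA reads, median of ratios, TMM and quantile normalization, with log2 ratios between 0.45 and 0.54. Its ratio of Dox over SB turned to between −0.32 and −0.02 under the same scalings. miR-101b-3p remained on the negative side for SB over Control and on the positive side for Dox over SB under all of them. It was no longer called for Dox over SB under reads on listed miRNAs (0.27) and quantile normalization (0.19), and for Dox over Control it was called under none of them. miR-26b-5p was called higher in Dox than in SB, and higher than in Control, under every scaling tried and, in rpm, at fold thresholds of 1.5 and 2. Its log2 ratio of Dox over SB was 0.63 with libraries scaled to reads on listed miRNAs, 0.72 under median of ratios and TMM, and 0.90 under quantile normalization.

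**Figure D4:**
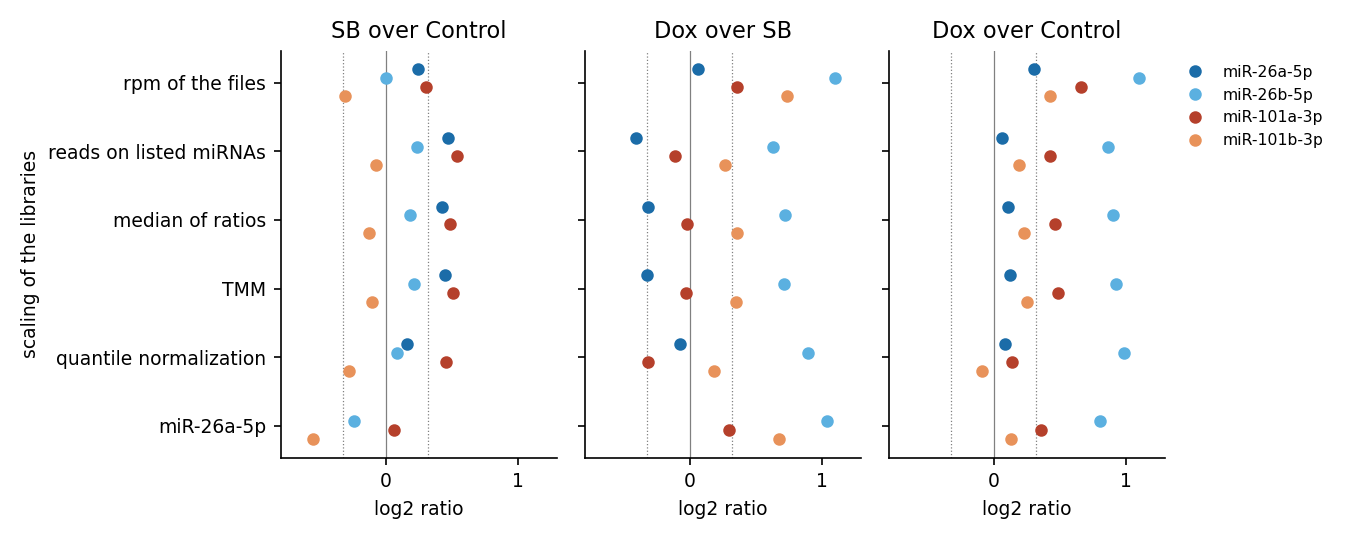
Log2 ratios of the guide arms in each comparison under the rpm of the files and 5 other scalings, with dotted lines at the fold threshold in either direction; miR-26a-5p is left out of the scaling to itself. miR-26b-5p lies beyond the upper line in both comparisons of the Dox library throughout, while miR-26a-5p and miR-101a-3p change sides for Dox over SB.

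As a reference, miR-26a-5p was judged by its spread, the highest minus the lowest log2 level over the 3 libraries, which has no test. Since the control miRNAs of the study were first found by sequencing, a small spread and the lack of a call in rpm may reflect that choice. Its spread in rpm was 0.30, and the 126 miRNAs with at least 1000 reads in each library had a median spread of 0.82. In order from the smallest spread it took place 7 of these 126. In a list of 18 miRNAs in common use as references it took place 3, behind miR-16-5p with 0.26 and miR-425-5p with 0.29, and those 3 stayed within the fold threshold. miR-26b-5p, on the same list and with the same seed, took place 16 with a spread of 1.10. Only miR-320-3p (1.93) and miR-423-5p (2.11) had more. Both are among the responders that the paper selected by sequencing, but in its qPCR, normalized to miR-26a, neither reached the fold threshold.

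The place of miR-26a-5p moved with the scaling. Its spread was 0.47 with libraries scaled to reads on listed miRNAs, 0.42 under median of ratios and 0.45 under TMM, and it took place 7 of the reference list under each of these. Under quantile normalization its spread was 0.16 and it took place 1. With libraries scaled to reads on listed miRNAs the smallest spreads of the list were those of miR-103-3p (0.08) and miR-107-3p (0.10), and miR-16-5p had 0.73. Of the 18 miRNAs, 12 were called higher in Dox than in SB by rpm and 1 was called lower, with a median log2 ratio of 0.56, beside 41.7% and 17.9% of all listed miRNAs and a median of 0.38. Scaled to reads on listed miRNAs, 3 were called higher and 6 lower, with a median of 0.09, beside 163 and 218 of all 693. From Control to SB 4 were called lower and 1 higher by rpm, with a median of −0.14, beside 30.2% and 15.3% of all and a median of −0.19. With the other scaling 3 were called lower and 6 higher, beside 144 and 165 of all 693.

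**Figure D5:**
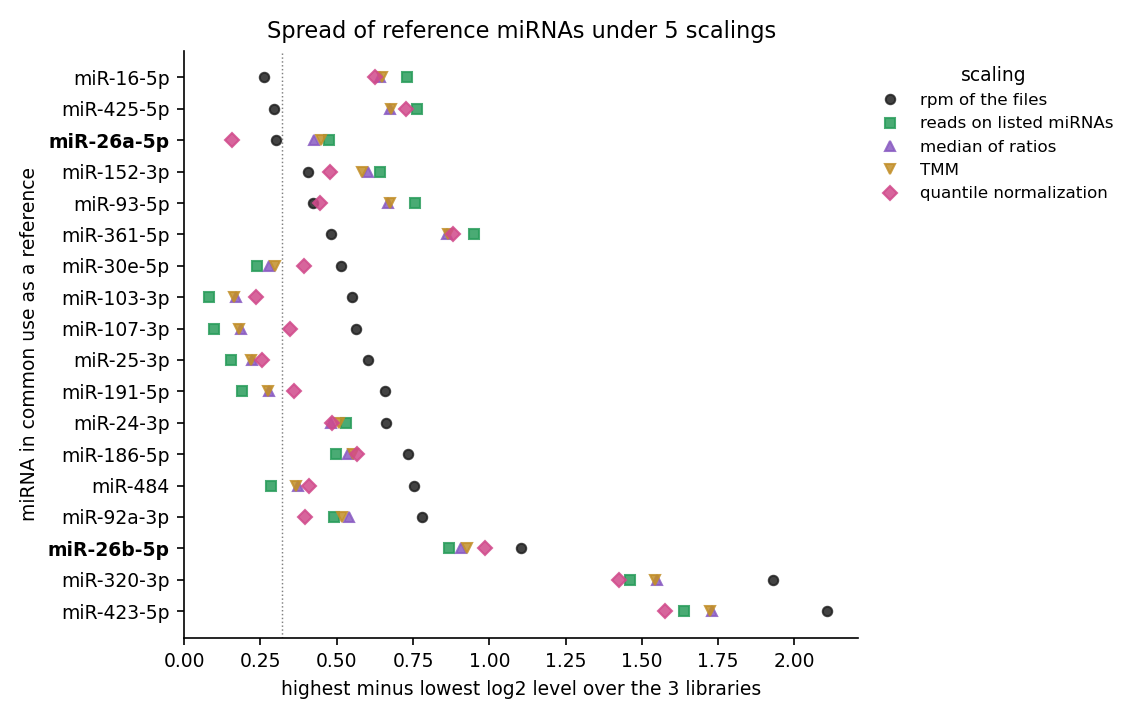
Spread over the 3 libraries (highest minus lowest log2 level) of 18 miRNAs in common use as references, in order of their spread in rpm, under 5 scalings; the dotted line marks the fold threshold. miR-26a-5p lies at 0.30 in rpm and between 0.16 and 0.47 under the other scalings, and miR-26b-5p lies at 0.87 or more throughout.

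Dividing every miRNA by miR-26a-5p moves all log2 ratios by the same amount, −0.24 for SB over Control, −0.06 for Dox over SB and −0.30 for Dox over Control. The log2 of the fold threshold is 0.32. For SB over Control the shift changed the calls of 129 of the 693 miRNAs: the number called lower went from 209 to 297 and the number called higher from 106 to 65. For Dox over SB it changed 35 calls, with 289 called higher before and 270 after. For Dox over Control it changed 159. Among the guides, miR-101b-3p was then called lower in SB than in Control, with a log2 ratio of −0.55, and miR-101a-3p was no longer called for Dox over SB, with 0.30, nor miR-101b-3p for Dox over Control, with 0.13.

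The families were set beside the other miRNAs of a list of 15 known to repress Ezh2, the rest being let-7 miRNAs, miR-98-5p, miR-138-5p and miR-214-3p. Most of these are let-7 paralogues, so the counts below are largely those of a single family. Of these other 11, 9 were called higher in SB than in Control and 0 lower, with a median log2 ratio of 1.11, beside 15.3% and 30.2% of all listed miRNAs and a median of −0.19. None of the guides was called by rpm. Scaled to reads on listed miRNAs, 10 of the 11 were called higher and so were 2 of the 4 guides, miR-26a-5p and miR-101a-3p, beside 165 of all 693. Between SB and Dox 10 of them were called lower and 0 higher, with a median of −1.01, beside 17.9% and 41.7% of all and a median of 0.38, and 3 of the 4 guides were called higher by rpm. Scaled to reads on listed miRNAs, 11 of the 11 were called lower, while 1 guide was called higher (miR-26b-5p) and 1 lower (miR-26a-5p, at −0.41). Of all 693 miRNAs, 218 were called lower and 163 higher with this scaling. let-7a-5p, for example, had 2419 rpm in Control, 4534 rpm in SB and 3148 rpm in Dox, and let-7g-5p had 654, 1419 and 1110 rpm. miR-138-5p had 93.1, 89.6 and 87.6 rpm and was not called in rpm for either comparison, but it was among the 11 called lower in Dox than in SB with the other scaling. Summed over the 11, the level was 15011 rpm in Control, 27277 rpm in SB and 14660 rpm in Dox.

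Markers of fibroblasts, the usual feeder cells of ES cultures, moved between the libraries as well. All 10 of a list of 10 were called higher in SB than in Control, and 9 were called lower in Dox than in SB, beside 15.3% and 17.9% of all listed miRNAs. Their summed levels were 2264, 5329 and 2890 rpm. miR-199a-3p had 547, 1943 and 337 rpm, miR-21-5p had 1159, 2486 and 2041 rpm, and no marker was at 0, although miR-214-3p, which is also on the Ezh2 list, had 1 read in Dox. Of 11 ES cell markers, all of them 3p arms of the miR-290 and miR-302 clusters, 5 were called higher and 0 lower in SB than in Control, beside 15.3% and 30.2% of all. In Dox against SB 8 were called lower and 2 higher (miR-293-3p and miR-367-3p), beside 17.9% and 41.7%, and scaled to reads on listed miRNAs 8 were called lower and 0 higher. Their summed levels were 35189, 38346 and 41097 rpm, of which miR-293-3p had 19525, 18793 and 26448 rpm. The 5p arms of the same 11 hairpins, of which 10 were listed, differed the other way. In rpm 7 of the 10 were called lower and 0 higher in SB than in Control, and 7 higher and 0 lower in Dox than in SB, and scaled to reads on listed miRNAs these counts were 4 and 0, and 5 and 1. With that scaling 144 of all 693 miRNAs were called lower and 165 higher in SB than in Control. For Dox over SB 163 were called higher and 218 lower. Their summed levels were 46676, 26847 and 52707 rpm, most of it miR-290-5p with 35638, 18094 and 37406 rpm. By counts of calls, the direction of the ES cell markers thus depended on the arm counted in both comparisons. By summed rpm it did so only for SB over Control, since the sums of both arms were higher in Dox than in SB. In bulk RNA, fewer cells of a type and less RNA per cell cannot be told apart. The part of either cell type in the values of the miR-26 and miR-101 families was not tested.

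The miRNAs most like miR-26a-5p were taken as those nearest to it in the pair of log2 ratios (SB over Control, Dox over SB), over 3 libraries and among the other 125 miRNAs with at least 1000 reads in each. miR-23a-3p was nearest at a distance of 0.02, with 739 rpm in Control, 862 rpm in SB and 895 rpm in Dox. miR-30a-5p (0.15), miR-295-3p (0.17), miR-106b-5p (0.20) and miR-222-3p (0.21) followed. Nearest to miR-101b-3p was miR-191-5p at 0.09, with 3611, 2999 and 4734 rpm, and then miR-423-3p (0.11), miR-291a-5p (0.14), miR-130a-3p (0.14) and miR-127-5p (0.15). Neither list held another member of the families.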

How the data were processed

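Small RNA libraries of 1 Control, 1 SB and 1 Dox culture were analysed, with the reads of each obtained over 2 sequencing runs as the study reports. The authors clipped adaptors (FASTX), discarded reads of 16 bases or fewer and used Bowtie 0.12.7 for alignment without mismatches to mature and then hairpin sequences of miRBase 18. A read with several matching miRNAs went to one by its length, or else to all. The values deposited by the authors are RPM, reads scaled to 1000000 reads of the library, for miRNAs reaching 10 reads when the libraries are summed. Each RPM value was a whole multiple of 1 step per library (0.0913, 0.0881 and 0.101 rpm, largest deviation 5.1e-05 reads), which gave the reads and totals used here. Fold changes have no pseudocount. The Z-score compared 2 proportions with a pooled variance. With 1 library per condition no fit across miRNAs was possible.

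Lists, members and tests were chosen with earlier results of these data known. Named miRNAs were the listed arms, the 5 nearest to miR-26a-5p and to miR-101b-3p, and members of the lists of references, Ezh2 repressors and cell type markers. Sequences and positions came from RefSeq (GRCm38.p6) and GENCODE M21, and were matched by name. The computation of calls and intervals was tested on simulated reads. Python 3.11.15 and SciPy 1.17.1 were used.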

Additional observations from a re-analysis of the deposited data

How the results depend on the processing

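Of 144 log2 ratios of the arms recomputed under other settings, 108 kept both sign and call, 22 kept only the sign, 7 only the call and 7 neither. miR-26b-5p kept its calls under each. For SB over Control, miR-26a-5p reached the criteria with libraries scaled to reads on listed miRNAs (log2 ratio 0.47), by median of ratios (0.42) and by TMM (0.45), and so did miR-101a-3p (0.54, 0.49 and 0.51, and 0.45 under quantile normalization). Scaled to miR-26a-5p, miR-101b-3p reached them at −0.55. For Dox over SB, miR-26a-5p turned to −0.41 (reads on listed miRNAs) and −0.33 (TMM) and was called lower, and to −0.32 (median of ratios) and −0.07 (quantile) without a call. miR-101a-3p turned to −0.11, −0.023, −0.028 and −0.32 (reads on listed miRNAs, median of ratios, TMM, quantile) without a call, and missed the criteria scaled to miR-26a-5p (0.30) or at fold thresholds of 1.5 and 2 (0.36). miR-101b-3p missed them at 0.27 (reads on listed miRNAs), 0.19 (quantile) and at a threshold of 2 (0.74). For Dox over Control, miR-101a-3p missed them under quantile normalization (0.14) and at a threshold of 2 (0.66). miR-101b-3p missed them at 0.19, 0.23, 0.25 and 0.13 (reads on listed miRNAs, median of ratios, TMM, miR-26a-5p) and at thresholds of 1.5 and 2 (0.43), and turned to −0.092 under quantile normalization.

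The arms called higher in SB than in Control numbered 2 under reads on listed miRNAs, median of ratios and TMM and 1 under quantile normalization, against 0 by rpm, and 1 was called lower scaled to miR-26a-5p. For Dox over SB 1 was called lower under reads on listed miRNAs and TMM, and 1 rather than 3 higher under reads on listed miRNAs, quantile normalization or a threshold of 2. For Dox over Control 1 was called higher under quantile normalization or a threshold of 2. Over all listed miRNAs, scaling to reads on listed miRNAs gave 163 called higher and 218 lower for Dox over SB, against 289 and 124, and 165 called higher for SB over Control, against 106. Median of ratios gave 185 higher and 201 lower for Dox over SB, and TMM gave 184 and 202, with 161 called higher for SB over Control. Scaling to miR-26a-5p gave 65 called higher for SB over Control, and 133 higher and 217 lower for Dox over Control, against 212 and 137. A threshold of 2 gave 49 higher and 67 lower for SB over Control, 154 and 67 for Dox over SB, and 94 and 56 for Dox over Control. In settings added after the data were seen, scaling to reads on listed miRNAs moved the references called higher from 1 to 6 for SB over Control, from 12 to 3 for Dox over SB and from 8 to 5 for Dox over Control, and those called lower from 1 to 6 and from 1 to 3 in the last 2 of these. The ES cell markers called higher went from 5 to 8, from 2 to 0 and from 3 to 0 in the same order, and the fibroblast markers called higher for Dox over Control from 2 to 1. The family sums under other scalings and the 5p arms of the ES cell markers were also added then. The causes were not tested.

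The spread of miR-26a-5p of 0.30 became 0.47, 0.42, 0.45 and 0.16 (reads on listed miRNAs, median of ratios, TMM, quantile), and its place among abundant miRNAs went from 7 to 38, 29, 31 and 5. In the reference list it went from 3 to 7 under the first 3 of these and to 1 under quantile normalization. Among all 693 miRNAs it was 36, and among those with at least 100 reads in each library it was 20. Adding the reads of miR-101c, a setting chosen after the data were seen, gave miR-101b-3p shares of 41.8%, 32.3% and 37.7%. Adding 1 rpm or requiring 100 summed reads changed no call of the arms. No paired analysis was possible because each condition had 1 library, and no library could be left out. Depth limits the 5p arms of miR-101, with between 4 and 11 reads, and the miR-26 3p arms, which were not listed.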
